A study of Mus musculus with 3 samples.

Results

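Fn1, Thbs1 and Tnc, which encode the matrix glycoproteins fibronectin, thrombospondin-1 and tenascin-C, were examined in sections of 3 mouse mammary tumours. They were taken by name and are 3 of the 258 gene columns of the series. All 3 tumours were titled MMTV-PyMT WT and were untreated. In this mouse model the middle T antigen of polyoma virus is driven by the mouse mammary tumour virus promoter, which is active mainly in mammary epithelium, and carcinomas arise there. The meaning of WT, the age and strain of the animals, and whether each tumour came from its own animal are not stated in the labels, so p-values measure only the spread between these 3 sections. No tumour-free tissue was analysed here. The tissue was formalin-fixed and paraffin-embedded and was imaged with MERSCOPE, an instrument that reads single RNA molecules in place by repeated rounds of fluorescent hybridization and assigns them to outlined cells.

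Fibronectin is assembled into fibrils that bind integrins on cells and serve as a scaffold for collagen, and it is abundant in the stroma of wounds and tumours. Thrombospondin-1 is a matricellular protein, meaning that it signals to cells from the matrix more than it builds it. It binds the receptor CD36, can release TGF-beta from its latent form and inhibits the growth of blood vessels. Tenascin-C, also matricellular, is sparse in most adult tissue and is made around developing ducts, in wounds and in tumour stroma, where it lies together with fibronectin.

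The tables held 71492483, 60759690 and 78051090 panel transcripts in 663145, 513963 and 786165 cells of tumours 1, 2 and 3, and values given as triplets below keep this order. Filtering left 619770, 453995 and 673638 cells with medians of 98, 106 and 94 transcripts. Levels are counts per 1000 panel transcripts, that is, counts of all 258 genes leaving aside the 27 Blank codes. A Blank code is assigned to no gene, so its counts show how often decoding goes wrong. They were 0.503%, 0.481% and 0.496% of everything decoded. The design text names 265 targeted genes, and only the 258 of the tables were analysed here. Cells were sorted into classes by clustering on the other 255 genes, so that the 3 genes had no part in the classes.

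All 3 genes stood above every Blank code in all 3 sections, as did 132 of the 258 genes. Over the whole section Fn1 was at 6.62, 3.13 and 10.9 per 1000, which was 13.6, 6.84 and 26.2 times the highest Blank code. Thbs1 was at 32.5, 16.9 and 56.5 per 1000, which was 66.9, 37.0 and 135 times that code. For both genes tumour 3 was the highest and tumour 2 the lowest. Tnc was at 3.39, 3.74 and 3.39 per 1000, from 242637, 227115 and 264690 counts, and differed little between the sections.

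Clustering gave 25 clusters, of which 13 were called epithelial-like and 2 fibroblast-like from fixed marker lists. One macrophage-like, one pericyte-like and one small T or NK cell-like cluster were also named. Pecam1 and Cdh5, both endothelial, led a further cluster, which is called by them because the panel held no other marker of its list. Another 6 clusters stayed unnamed. The fibroblast-like class held a large cluster led by the collagen gene Col1a1, with the T cell gene Cd3g in second place, and a small one led by Clec3b and Pi16 that also had the macrophage gene Cd163 among its leading genes. Of the epithelial-like clusters, 2 held 1 macrophage marker and no epithelial marker among their 10 leading genes against all other cells. They made up 11.2% of epithelial-like cells, and no call on Fn1, Thbs1 or Tnc changed when they were left out. Clusters led by Tnf and Bglap3, by Fos and Egr1 and by Axin2 and Mx1 also held no epithelial marker among those 10, and none of another class. These averaged 11.6%, 8.86% and 2.28% of epithelial-like cells, and leaving them out was not tested.

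Fn1 was highest in fibroblast-like cells of the Clec3b-led cluster, a kind of cell in which Pi16 and Dpt mark fibroblasts of loose connective tissue. There it stood at 91.3, 31.1 and 79.1 per 1000, a mean of 67.2 ± 31.8 (SD, n = 3, as for all means below). In the Col1a1-led cluster it was at 22.7, 16.5 and 23.7 per 1000 (21.0 ± 3.93). The Clec3b-led cells were above the Col1a1-led cells in each tumour. Macrophage-like cells followed at 21.0, 7.64 and 27.9 per 1000 (18.9 ± 10.3) and pericyte-like cells at 18.5, 14.9 and 18.4 per 1000 (17.3 ± 2.06). Pericyte-like cells were below the Col1a1-led cells in each tumour, although the ranges over tumours overlapped, and macrophage-like cells were below them in tumours 1 and 2 and above them in tumour 3. An unnamed cluster led by the adipocyte gene Pparg was at 11.4 ± 2.74, the Pecam1- and Cdh5-led cells at 8.15 ± 1.32 and epithelial-like cells at 5.04 ± 4.40 per 1000. The last 2 overlapped, because epithelial-like cells of tumour 3 reached 9.97 per 1000 against 9.66 in its Pecam1- and Cdh5-led cells. An unnamed cluster led by interferon-induced genes (2.99 ± 2.28) and one led by Il17b and the smooth muscle gene Acta2 (2.80 ± 0.136) came last.

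Thbs1 had another order of classes. It was highest by mean in epithelial-like cells, at 36.3, 18.4 and 59.96 per 1000 (38.2 ± 20.9). This was above the macrophage-like, pericyte-like, Pecam1- and Cdh5-led and both fibroblast-like clusters in each tumour. The interferon-led cluster was at 42.2, 14.2 and 47.2 per 1000 (34.5 ± 17.8), above epithelial-like cells in tumour 1 and below them in tumours 2 and 3. Macrophage-like cells were at 18.4, 10.8 and 31.0 per 1000 (20.1 ± 10.3), Col1a1-led fibroblast-like cells at 16.7 ± 7.004, pericyte-like cells at 15.2 ± 5.91 and Pecam1- and Cdh5-led cells at 11.2 ± 5.79. The ranges of these neighbours over tumours overlapped, but their order was the same within each tumour. In cells without fibroblast list transcripts, pericyte-like cells (15.8, 15.1 and 37.1) were above macrophage-like cells (22.2, 11.3 and 36.5) in tumours 2 and 3. Clec3b-led fibroblast-like cells, the highest class for Fn1, were the lowest for Thbs1 by mean, at 7.49 ± 1.95. In the epithelial-like, macrophage-like, pericyte-like and Pecam1- and Cdh5-led classes, tumour 3 was the highest and tumour 2 the lowest, as over the whole section.

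Tnc was highest in Col1a1-led fibroblast-like cells, at 11.8, 16.2 and 15.3 per 1000 (14.4 ± 2.31), and above the Clec3b-led cells in each tumour (8.21 ± 2.59). Pericyte-like cells had 6.34 ± 1.20, which overlapped the Clec3b-led cells. Levels were lower in Pecam1- and Cdh5-led cells (3.40 ± 0.705), macrophage-like cells (2.80 ± 0.458) and epithelial-like cells (2.74 ± 0.0393), whose ranges over tumours overlapped. Pecam1- and Cdh5-led cells were above macrophage-like cells in each tumour, and epithelial-like cells had no common order with either. The epithelial-like level was nearly equal in the 3 tumours, at 2.70, 2.75 and 2.77 per 1000, unlike those of Fn1 and Thbs1. In cells without fibroblast list transcripts the order differed, with Tnc at 2.09, 1.83 and 2.41 per 1000 in epithelial-like cells. It was lower in each tumour in Pecam1- and Cdh5-led cells (1.15, 1.41 and 1.67) and macrophage-like cells (1.37, 0.963 and 1.14). Pericyte-like cells had 3.11 ± 2.01 there. The highest Blank code was at most 1.51 per 1000 in the fibroblast-like, pericyte-like, macrophage-like, Pecam1- and Cdh5-led and epithelial-like cells of each tumour.

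**Figure D1:**
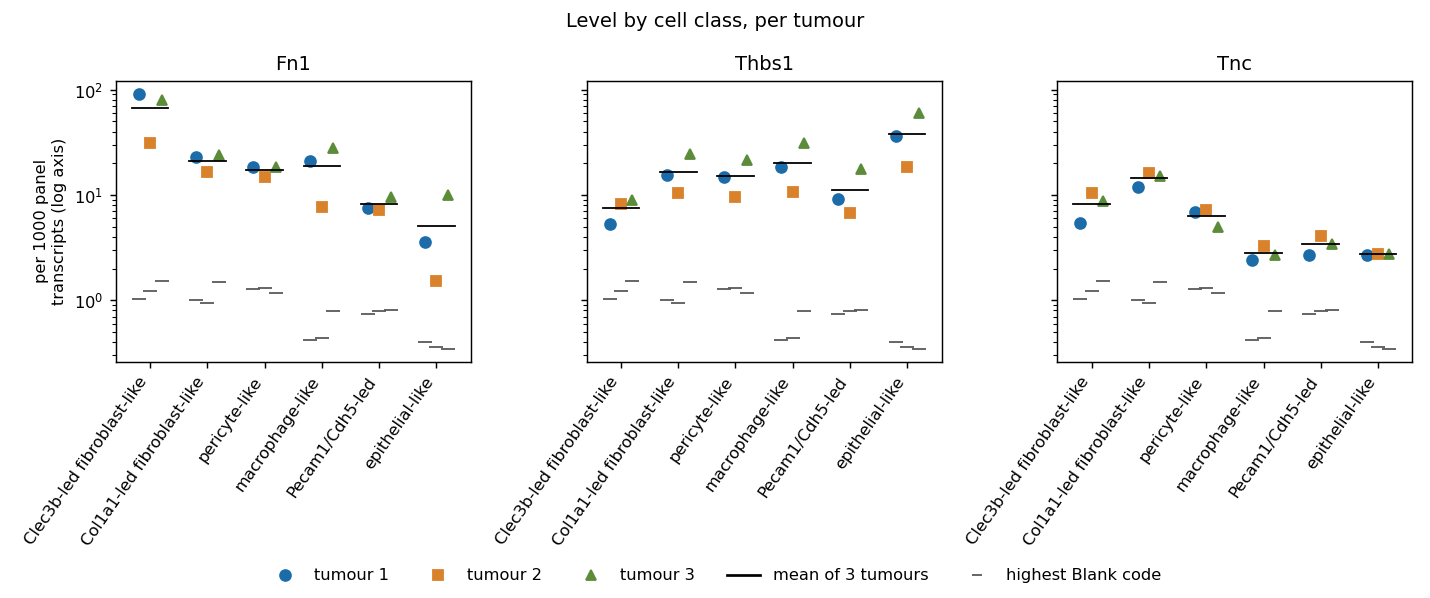
Level of Fn1, Thbs1 and Tnc in counts per 1000 panel transcripts (log axis) in 6 cell classes, with 1 point per tumour, the mean of 3 tumours as a long line and the highest Blank code of each tumour as a short grey line. Fn1 and Tnc are high in the fibroblast-like clusters on the left, and Thbs1 is highest in the epithelial-like cells on the right.

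The direct comparison set fibroblast-like against epithelial-like cells of the same section. Fn1 had 27.8, 17.7 and 26.6 per 1000 in fibroblast-like cells, against 3.61, 1.53 and 9.97 per 1000 in epithelial-like cells. Tnc had 11.3, 15.7 and 14.95 per 1000 in fibroblast-like cells, against 2.70, 2.75 and 2.77 per 1000 in epithelial-like cells. Thbs1 went the other way, with 14.6, 10.2 and 23.4 per 1000 in fibroblast-like cells, against 36.3, 18.4 and 59.96 per 1000 in epithelial-like cells. The classes did not overlap within any tumour for any of the 3 genes, but for Thbs1 the ranges over tumours did.

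In edgeR's quasi-likelihood test on counts summed per tumour and class, with the tumour as a block, Tnc was higher in fibroblast-like cells by a log2 fold change of 2.34 ± 0.15 (SE, adjusted p = 4.15e-07). Fn1 was higher by 2.65 ± 0.34 (edgeR adjusted p = 3.39e-05), and the 3 tumours gave log2 ratios of 2.94, 3.54 and 1.42, of which tumour 3 was the smallest. Thbs1 was lower, at -1.17 ± 0.15 (edgeR adjusted p = 4.18e-05). All 3 directions held in 3 of 3 tumours. Since the classes rest on the other genes, 82.2% of all 258 genes passed the same test in either direction, and the median of all genes was -0.45. Relative to that shift, which TMM normalization moved to 0.08, Thbs1 was at -0.65, Fn1 at 3.17 and Tnc at 2.86. The fibroblast marker list summed to 383, 458 and 445 per 1000 in fibroblast-like cells and to 26.4, 24.1 and 20.2 per 1000 in epithelial-like cells. The epithelial list summed to 39.6, 30.1 and 31.8 per 1000 in fibroblast-like cells and to 146, 145 and 123 per 1000 in epithelial-like cells. With epithelial-like cells that had no fibroblast list transcript, the fold changes were 2.90 for Fn1, -1.40 for Thbs1 and 2.72 for Tnc.

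Other genes around the 3 were used to form the classes, so their differences here are a description only. Of 10 other matrix and matricellular genes, 6 were higher and 4 lower in fibroblast-like cells, with a list median of 1.58. Col1a1, the main fibrillar collagen, averaged 388 ± 49.3 per 1000 in fibroblast-like cells and 17.4 ± 1.98 per 1000 in epithelial-like cells. Postn, encoding periostin, which binds both tenascin-C and fibronectin, averaged 24.8 ± 7.17 and 3.94 ± 0.756 per 1000 in the same classes. Lower were Lama5 and Lamb3, chains of the laminins in epithelial basement membrane, at log2 fold changes of -2.20 and -1.51. Of 10 TGF-beta pathway genes, 9 were lower (3 under TMM normalization). Tgfb3, a ligand, averaged 12.9 ± 1.42 per 1000 in fibroblast-like cells and 35.1 ± 5.79 per 1000 in epithelial-like cells. Of 7 matrix proteases and inhibitors, 6 were higher and Timp2 was lower. Of these, Mmp2, Mmp3, Mmp13 and Timp1 were not above every Blank code in all tumours. Nor were Lama3, Ccn3, Tgfb2 and Tgfbr1 of the matrix and TGF-beta lists. Of all genes 82.2% passed in either direction, and of 27 Blank codes 7 were higher and 13 lower. Cd44, a receptor for hyaluronan that also binds fibronectin, was at -2.15.

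Each class's share of a gene's transcripts depends on its level and on its number of cells. Fibroblast-like cells were 6.24%, 7.38% and 5.04% of cells and gave 7.56%, 7.16% and 4.74% of all panel transcripts. They gave 34.4%, 42.0% and 11.8% of Fn1 transcripts (29.4 ± 15.7). Epithelial-like cells were 83.0%, 79.0% and 86.9% of cells and gave 49.1%, 40.9% and 82.5% of Fn1 (57.5 ± 22.1). Fibroblast-like cells thus gave more Fn1 transcripts than epithelial-like cells in tumour 2 only, and the 2 shares lay farthest apart in tumour 3. Macrophage-like cells gave a further 8.69%, 4.197% and 1.21%.

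For Thbs1 epithelial-like cells gave most transcripts in all 3 tumours. Fibroblast-like cells gave 3.37%, 4.30% and 1.97% of its transcripts (3.21 ± 1.17), below their share of cells, and epithelial-like cells gave 91.7%, 87.6% and 93.7% (91.0 ± 3.15). Tnc took a middle place, with 25.4%, 30.3% and 21.3% from fibroblast-like cells (25.7 ± 4.54) and 66.3%, 60.3% and 73.5% from epithelial-like cells (66.7 ± 6.60). A low level per cell in a large class therefore held most Tnc counts, although the fibroblast-like level was the higher one in each tumour. With classes taken from summed marker counts in place of clusters, the fibroblast-like share was 34.6% for Tnc and 5.59% for Thbs1. Transcripts of a neighbouring fibroblast assigned to an epithelial-like cell would count as epithelial here, and their part in these shares was not tested.

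**Figure D2:**
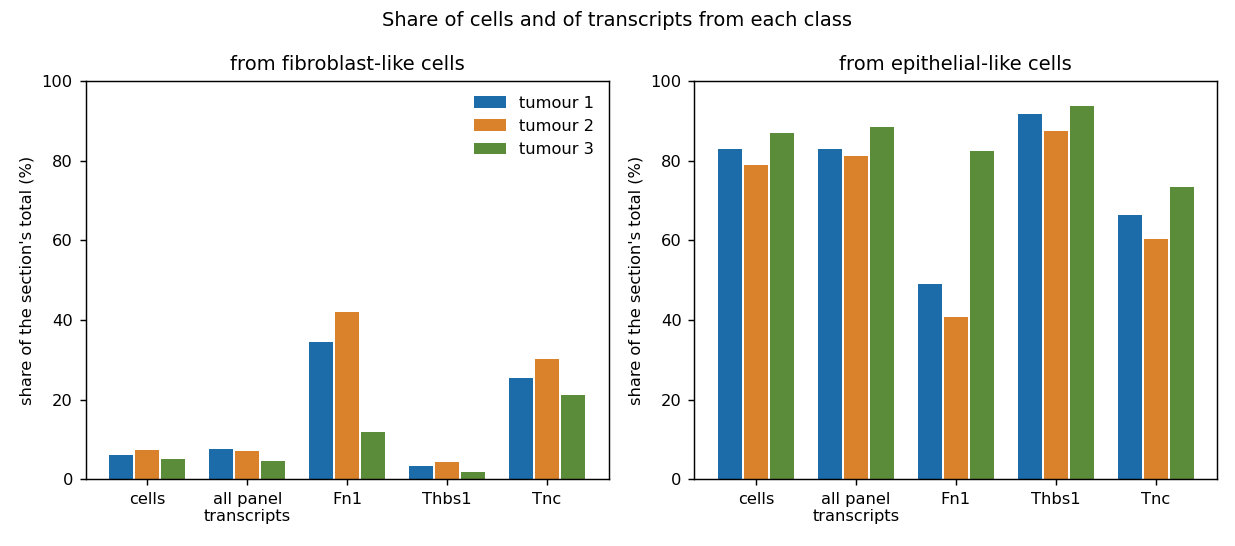
Share of the section's cells, of all panel transcripts and of the transcripts of each gene (percent) that came from fibroblast-like cells on the left and epithelial-like cells on the right, 1 bar per tumour. Fibroblast-like cells give 34.4%, 42.0% and 11.8% of Fn1 but at most 4.30% of Thbs1, which comes mostly from epithelial-like cells in all 3 tumours.

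Within the epithelial-like class the 3 genes were unevenly spread. The cluster led by Krt17, a keratin of basal and stressed epithelium, and Fosb, an immediate early transcription factor gene, had the highest Thbs1 level of the 13 clusters in each tumour, at 95.4, 53.1 and 151 per 1000. Its Tnc level was also the highest in each tumour, at 12.8, 14.0 and 9.32 per 1000. Its Fn1 level was 15.3, 2.78 and 46.0 per 1000, the highest in tumours 1 and 3 but not in tumour 2. There the clusters led by Arg1 and Wif1 (4.17) and by Wif1 and Chad (3.41) were higher. The 3 genes were not used to form these clusters, and the values are a description with no test.

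The Krt17- and Fosb-led cluster made up 1.78%, 1.78% and 8.71% of all cells and gave 5.10%, 1.73% and 45.4% of Fn1 transcripts. It gave 5.94%, 5.89% and 28.2% of Thbs1 and 7.75%, 7.14% and 29.5% of Tnc. In tumour 3, where it was most common, this 1 cluster held more Fn1 transcripts than all fibroblast-like cells of that section. Without it the fibroblast-like against epithelial-like difference kept its direction and side of the threshold for all 3 genes.

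Other epithelial-like clusters ranked differently for each gene. Clusters led by Axin2 and Mx1 (57.0, 29.0 and 93.8 per 1000) and by Aldh1a3 and Egr1 (58.2, 31.0 and 65.8) were next for Thbs1 by mean. The Axin2- and Mx1-led cluster had 540 and 1089 cells in tumours 1 and 2, against 37605 in tumour 3. Thbs1 was low in the clusters with basal keratins, at 19.3, 10.5 and 21.1 per 1000 in the one led by Krt5 and Krt15 and at 18.3, 11.1 and 18.9 in the one led by Krt14 and Krt17. Tnc in those 2 clusters was at 4.04, 9.32 and 4.16 and at 8.66, 2.62 and 7.89 per 1000, mostly above its class mean of 2.74. By mean, Tnc was lowest in clusters led by Tnf and Bglap3 (1.07, 1.06 and 0.883) and by Arg1 and Wif1 (1.25, 0.528 and 1.03).

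**Figure D3:**
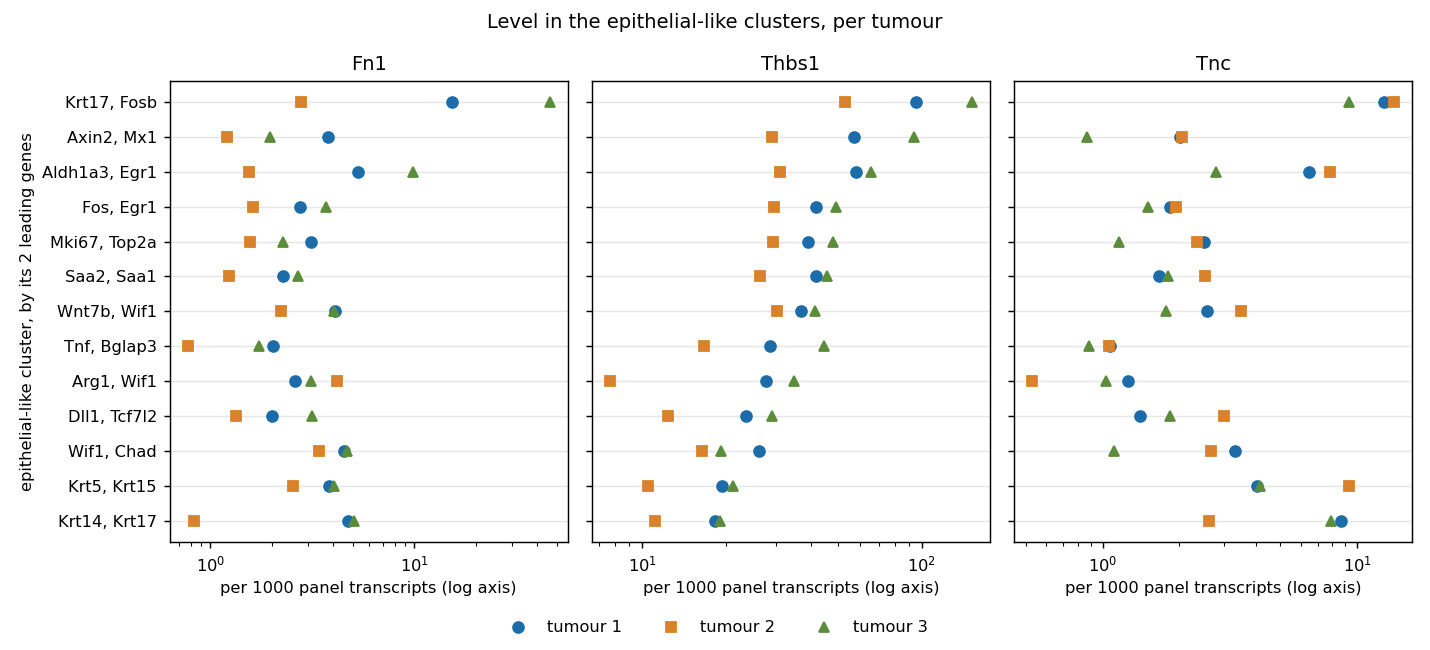
Level of Fn1, Thbs1 and Tnc in counts per 1000 panel transcripts (log axis) in the 13 epithelial-like clusters, each called by its 2 leading genes and sorted by mean Thbs1 level, with 1 point per tumour. The Krt17- and Fosb-led cluster at the top is highest for Thbs1 and Tnc in all 3 tumours, while its Fn1 runs from 2.78 in tumour 2 to 46.0 in tumour 3.

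Single cells showed how Fn1 was concentrated. Of epithelial-like cells, 1.09%, 0.268% and 5.33% held 5 or more Fn1 transcripts, and these cells held 26.5%, 12.3% and 61.4% of the class's Fn1. The median depth of epithelial-like cells was 99, 110 and 97 transcripts, and their mean depth was 113, 134 and 115. Cells with 5 or more Fn1 transcripts had median depths of 160, 224 and 193, against 90, 103 and 82 in cells without Fn1. Their Col1a1 level was 40.1, 67.4 and 11.7 per 1000, against 15.5, 14.8 and 12.8, so it was higher in tumours 1 and 2 only. The part of cell depth and of fibroblast transcripts in the concentration of Fn1 was not tested. The highest count of a Blank code in 1 epithelial-like cell was 70, 70 and 116, and 58, 32 and 366 such cells held 5 or more of a single code. For Thbs1, 27.8%, 14.3% and 40.4% of epithelial-like cells held 5 or more transcripts.

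Position relative to the stroma was taken first. Epithelial-like cells were called near when a fibroblast-like cell centre lay within 25 µm and far when none lay within 75 µm. Thbs1 was at 30.9, 14.4 and 37.7 per 1000 in near cells, against 48.9, 21.6 and 96.0 per 1000 in far cells. Near cells were the lower ones in each tumour, and the gap was widest in tumour 3. The log2 fold change was -0.86 ± 0.18 (SE, edgeR adjusted p = 0.0194), and 27.5% of all genes passed the test in either direction, with a median of -0.01. The call did not hold under TMM normalization, DESeq2 or without tumour 2, or in cells without fibroblast list transcripts (-0.79, adjusted p = 0.0701), although the direction did. Nor did it hold without the Krt17- and Fosb-led cluster (-0.64, adjusted p = 0.0613), which made up 0.882%, 0.477% and 2.52% of epithelial-like cells within 10 µm of a fibroblast-like cell and 11.6%, 7.18% and 24.99% of those at 75 to 150 µm.

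Fn1 showed no common direction with distance. It was at 3.92, 2.34 and 6.90 per 1000 in near cells, against 5.75, 0.776 and 16.5 per 1000 in far cells. Near cells were lower in tumours 1 and 3 and higher in tumour 2, with log2 ratios of -0.55, 1.59 and -1.26, and the test gave -0.11 ± 0.54 (SE, edgeR adjusted p = 0.899). Tnc was at 2.87, 4.06 and 3.32 per 1000 in near cells, against 4.39, 1.54 and 3.22 per 1000 in far cells, a log2 fold change of 0.27 ± 0.38 (SE, edgeR adjusted p = 0.666). The tumours differed in sign, and neither gene gave a difference beyond the spread between tumours.

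Finer bins showed the shape. Thbs1 in epithelial-like cells was at 26.8, 12.2 and 33.6 per 1000 within 10 µm of a fibroblast-like cell, at 40.2, 19.1 and 49.97 at 25 to 50 µm and at 48.9, 21.4 and 95.2 at 75 to 150 µm, higher at each of these steps in each tumour. Tnc was at 4.13, 5.48 and 4.59 per 1000 within 10 µm and at 2.30, 2.53 and 2.17 at 25 to 50 µm. Beyond that it stood at 4.39 in tumour 1, 1.66 in tumour 2 and 3.30 in tumour 3 at 75 to 150 µm. Up to that distance tumours 1 and 3 thus had a dip and tumour 2 had none. Past 150 µm, a bin that tumour 1 lacked, Tnc was at 1.12 in tumour 2 and at 2.72 in tumour 3. Fn1 had the same kind of dip in tumours 1 and 3, where its lowest bins were at 3.10 and 6.57 per 1000, and in tumour 2 was lower in each bin out to 0.573 beyond 150 µm, where the highest Blank code was at 0.536. In tumour 3 Fn1 was at 17.1 per 1000 at 75 to 150 µm and at 12.6 beyond 150 µm. The fibroblast list in epithelial-like cells summed to 36.0, 45.0 and 40.7 per 1000 in near cells, against 8.99, 6.29 and 5.82 per 1000 in far cells.

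Epithelial-like cells far from any fibroblast-like cell and without a single fibroblast list transcript were read separately. There were 4344, 31273 and 61868 such cells. In them Fn1 was at 6.23, 0.630 and 14.97 per 1000, Thbs1 at 51.2, 22.4 and 102, and Tnc at 4.19, 1.42 and 2.97, while the highest Blank code was at 0.434, 0.502 and 0.391. All 3 genes were thus above every Blank code there, with Fn1 in tumour 2 closest to it. Macrophage-like, pericyte-like and Pecam1- and Cdh5-led neighbours were not excluded from this set, and the part of their transcripts was not tested.

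Distance to Pecam1- and Cdh5-led cells gave a similar order for Thbs1 in each tumour. Within 10 µm of such a cell, epithelial-like cells of tumour 3 had 33.8 Thbs1 and 5.73 Fn1 per 1000, and beyond 150 µm they had 106 and 30.8. In tumour 2 Thbs1 was at 13.7 per 1000 within 10 µm and at 23.2 beyond 150 µm, whereas Fn1 was at 2.38 and 0.887. In tumour 1 Thbs1 was at 26.2 per 1000 within 10 µm and at 43.1 at 75 to 150 µm, and Fn1 was at 3.58 and 4.35. The Krt17- and Fosb-led cluster made up 40.8% of the cells of the outermost bin in tumour 3 and 6.02% in tumour 2. By distance to macrophage-like cells, Thbs1 was at 30.8, 15.4 and 41.1 per 1000 within 10 µm and at 47.9, 20.3 and 75.7 at 75 to 150 µm.

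**Figure D4:**
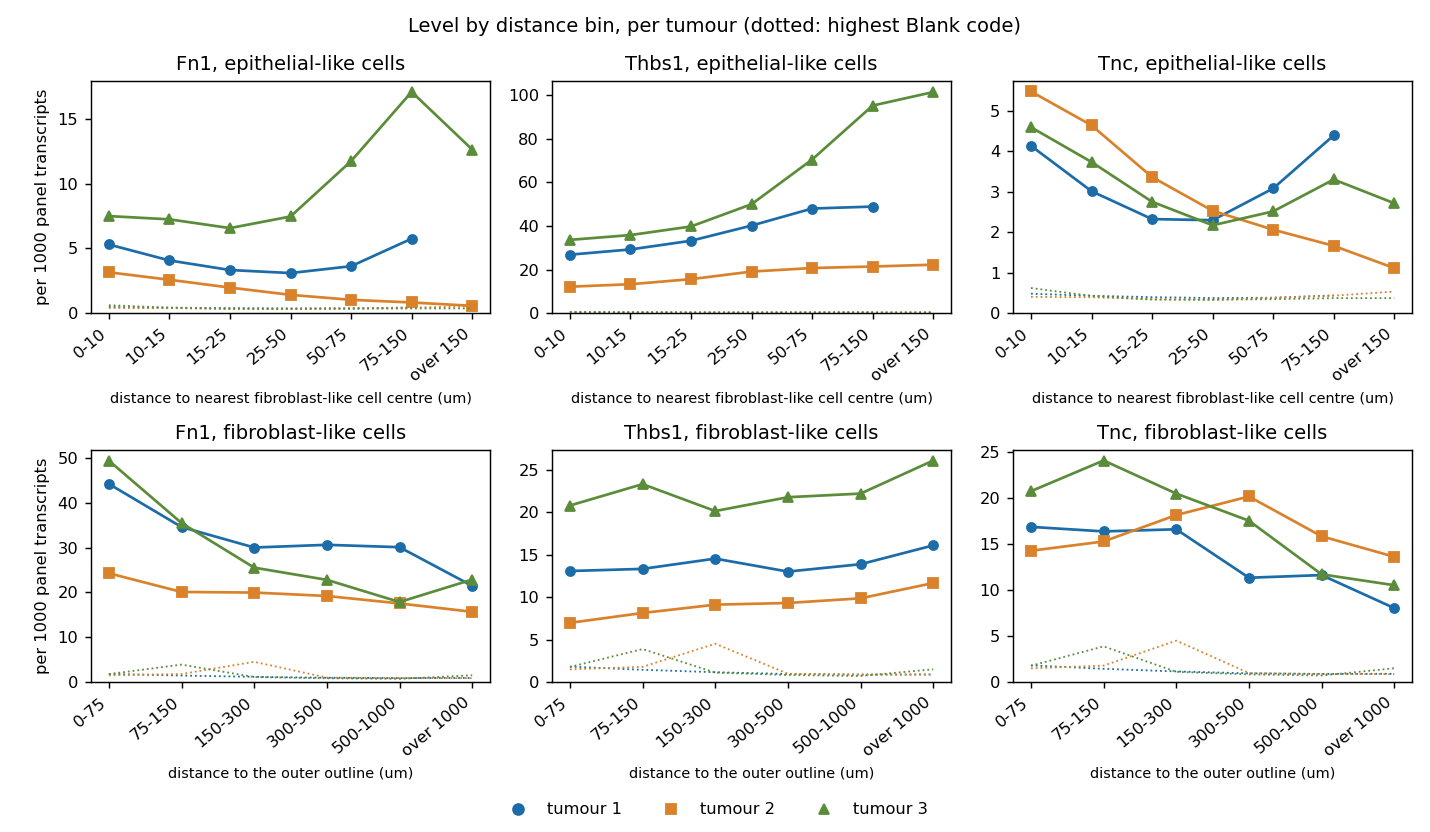
Level of Fn1, Thbs1 and Tnc in counts per 1000 panel transcripts in bins of distance (µm), 1 line per tumour and dotted lines for the highest Blank code, for epithelial-like cells by distance to the nearest fibroblast-like cell centre (top) and for fibroblast-like cells by distance to the outer outline of the tissue (bottom). Thbs1 in epithelial-like cells reaches 48.9, 21.4 and 95.2 at 75 to 150 µm in tumours 1, 2 and 3, and Fn1 in fibroblast-like cells is highest in the outermost 75 µm.

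The lists around the 3 genes were read in the same fit. Of 10 other matrix and matricellular genes 5 were higher and 1 lower in near cells, with a list median of 0.95 (-0.01 over all genes, of which 27.5% passed). Col1a1 averaged 31.4 ± 4.28 per 1000 in near cells and 4.03 ± 0.834 per 1000 in far cells, and Postn 6.39 ± 0.857 and 1.41 ± 0.640. Both are on the fibroblast list. Lama5 was lower (-0.87, edgeR adjusted p = 0.00944). Of 10 TGF-beta pathway genes, 2 were higher and 1 lower with a list median of 0.20 (2 and 0 under TMM normalization), a share near that of all genes. Among them, Ltbp2, which encodes a latent TGF-beta binding protein family member of elastic fibres, was at 0.81, while Tgif1, a repressor within the pathway, was at -0.51 (adjusted p = 0.0417 in edgeR, and 0.0628 under TMM normalization).

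Basal keratin cells were compared next, because basal epithelium borders the stroma in the mammary gland. Epithelial-like cells with 3 or more transcripts of Krt5, Krt14 and Krt15 were set against those with none. Thbs1 was at 24.6, 13.8 and 36.8 per 1000 in basal keratin cells, against 38.9, 18.6 and 62.0 per 1000 in other cells. It was lower in basal keratin cells of each tumour, by a log2 fold change of -0.62 ± 0.10 (SE, edgeR adjusted p = 0.0198). The test called 19.0% of all genes in either direction, with a median of -0.03. Per cell volume in place of panel transcripts the value was -0.34 (adjusted p = 0.051), and basal keratin cells had 157, 176 and 145 panel transcripts per cell, against 99.4, 123 and 105 in other cells. The call was also lost with DESeq2 (-0.67, adjusted p = 0.282) and in cells without fibroblast list transcripts (-0.58, edgeR adjusted p = 0.103), at log2 fold changes of about the same size.

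Tnc was at 3.59, 7.68 and 4.03 per 1000 in basal keratin cells, against 2.49, 2.12 and 2.47 per 1000 in other cells. The groups did not overlap, but the log2 fold change of 1.02 ± 0.29 missed the threshold (SE, edgeR adjusted p = 0.0621), and it passed in 9 of 17 alternatives. In cells without fibroblast list transcripts it was 0.42 (adjusted p = 0.312), and the fibroblast list summed to 39.9, 51.5 and 36.5 per 1000 in basal keratin cells, against 22.9, 20.2 and 17.7 per 1000 in other cells. Fn1 was at 3.62, 2.31 and 8.35 per 1000 in basal keratin cells, against 3.63, 1.34 and 9.45 per 1000 in other cells, with no common direction (0.20 ± 0.21, edgeR adjusted p = 0.506). Of 10 other matrix genes 4 were higher and 1 lower (list median 0.52), where 19.0% of all genes passed. Postn was at 2.10 and Sparc, encoding a matricellular collagen-binding protein, at 1.28, and Lama5 was at -0.60.

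At the margin of the tissue, within 150 µm of its outer edge, epithelial-like cells were compared with those 500 µm or more inside. Tnc was at 4.57, 3.51 and 6.28 per 1000 in margin cells, against 2.33, 2.56 and 2.61 per 1000 in interior cells. It was higher at the margin in each tumour, most in tumour 3, by a log2 fold change of 0.90 ± 0.19 (SE, edgeR adjusted p = 0.0249). The median of all genes was 0.27 and 34.1% of them passed the test in either direction, 87 of them higher and 1 lower (47 and 57 with DESeq2). Among the Blank codes, 20 of 27 were higher at the margin, with a median of 0.50. Relative to other genes, under TMM normalization, Tnc was at 0.66 (adjusted p = 0.123), and the call was also lost per cell volume, without tumour 3 and in cells without fibroblast list transcripts (0.29, adjusted p = 0.31). The fibroblast list summed to 35.9, 34.9 and 33.0 per 1000 in margin cells, against 25.2, 22.1 and 18.8 per 1000 in interior cells. Margin cells held 121, 110 and 86.6 panel transcripts per cell, against 110, 138 and 119 in interior cells. The part of this depth in the Tnc difference was not tested.

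Fn1 was at 3.95, 2.27 and 9.94 per 1000 in epithelial-like margin cells, against 3.54, 1.40 and 10.3 per 1000 in interior cells (0.27 ± 0.18, edgeR adjusted p = 0.295). Thbs1 was at 32.8, 19.7 and 54.9 per 1000 in margin cells, against 35.7, 18.2 and 61.2 per 1000 in interior cells (-0.05 ± 0.10, edgeR adjusted p = 0.74). Neither differed beyond the spread between tumours. Of 10 other matrix genes 6 were higher, where 34.1% of all genes passed, Postn at 1.04 and Mgp, encoding matrix Gla protein, at 0.65, but under TMM normalization edgeR called 0 of the 10 (4 had an unadjusted p under 0.05). Among 10 TGF-beta pathway genes edgeR called 0 (1 had an unadjusted p under 0.05), while DESeq2 called 8 of them lower.

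Fibroblast-like cells were compared over the same distances. Fn1 was at 39.3, 22.0 and 43.3 per 1000 in margin cells, against 24.6, 16.3 and 21.3 per 1000 in interior cells. It was higher at the margin in each tumour, by a log2 fold change of 0.71 ± 0.14 (SE, edgeR adjusted p = 0.00461), where 48.8% of all genes passed in either direction and their median was 0.33. Under TMM normalization, which brought that median to 0.10, Fn1 was at 0.48 (adjusted p = 0.0276). Per cell volume it was 0.31 (edgeR adjusted p = 0.378). Margin cells held 139, 118 and 96.1 panel transcripts per cell, against 132, 128 and 119 in interior cells. Among Blank codes 23 of 27 were higher at the margin, with a median log2 fold change of 0.77 (0.15 to 1.12), above that of Fn1. The make-up of the class moved too, since Clec3b-led cells were 21.8%, 21.7% and 20.3% of fibroblast-like cells at the margin, against 4.997%, 4.75% and 0.225% in the interior. Within Col1a1-led cells alone Fn1 was at 27.9, 16.5 and 33.9 per 1000 at the margin, against 21.3, 15.9 and 21.3 per 1000 in the interior (0.37, edgeR adjusted p = 0.0925).

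Tnc in fibroblast-like cells was at 16.6, 14.8 and 22.2 per 1000 at the margin, against 9.36, 14.4 and 10.9 per 1000 in the interior. Tumours 1 and 3 were higher at the margin and tumour 2 was nearly level, with log2 ratios of 0.83, 0.04 and 1.03. The test gave 0.64 ± 0.18 (SE, edgeR adjusted p = 0.0203), below the Blank median of 0.77, and 0.40 under TMM normalization (adjusted p = 0.111). It was also lost without tumour 1 or tumour 3, per cell volume, and with a margin of 75 µm and an interior of 300 µm. Within Col1a1-led cells alone it was 0.84 (edgeR adjusted p = 0.0321). Thbs1 was at 13.2, 7.60 and 21.9 per 1000 at the margin, against 15.3, 11.03 and 24.9 per 1000 in the interior, lower in each tumour but short of the threshold (-0.31 ± 0.13, edgeR adjusted p = 0.0712). With the upward shift of all genes taken out by TMM normalization, Thbs1 passed it, at -0.55 (adjusted p = 0.014).

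Fibroblast-like cells away from the tumour epithelium carried more Fn1. In those within 10 µm of an epithelial-like cell it was at 20.6, 14.7 and 19.9 per 1000, at 15 to 25 µm it was at 40.7, 18.4 and 33.2, and beyond 50 µm at 110, 30.6 and 64.6. The share of Clec3b-led cells went with it, at 0.896%, 1.19% and 0.411% within 10 µm and 79.9%, 57.9% and 51.4% beyond 50 µm. In Col1a1-led cells alone Fn1 was at 20.4, 14.6 and 19.9 per 1000 within 10 µm and at 44.7, 22.6 and 42.5 beyond 50 µm. A smaller difference in the same direction was thus seen without the Clec3b-led cells, but Blank codes rose over the same bins. In Col1a1-led cells the mean Blank code went from 0.209, 0.186 and 0.234 per 1000 to 0.397, 0.357 and 0.282. The highest went from 0.924, 0.838 and 1.27 to 2.36, 4.72 and 1.65. The part of this background in the Fn1 difference was not tested. These bins were not tested.

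Of 10 other matrix genes, 1 was higher and 1 lower at the margin among fibroblast-like cells (1 and 3 under TMM normalization), a smaller share than the 48.8% of all genes that passed. The lower one was Col4a1, a basement membrane collagen, with 26.7 ± 9.40 per 1000 in margin cells and 41.1 ± 3.54 in interior cells (edgeR adjusted p = 0.0208). The list median was -0.02. Among 10 TGF-beta pathway genes 2 were higher and 2 lower (1 and 3 under TMM normalization), a share near that of all genes. Tgfbr2, a receptor, was at 0.53 (0.30 and not past the threshold under TMM normalization), Tgfb3 at -0.44 and Tgif1 at -0.52. Of 7 matrix proteases and inhibitors, edgeR called 2 higher and 0 lower in this comparison (1 and 1 under TMM normalization), and the same numbers in near, basal keratin and margin epithelial-like cells (0 and 0 under TMM normalization at the epithelial-like margin, with 3 at an unadjusted p under 0.05). All genes passed at 48.8% in this comparison and at 27.5%, 19.0% and 34.1% in those, so the proteases and inhibitors were not set apart by these counts. The macrophage list summed to 10.04, 7.71 and 6.03 per 1000 in margin cells, against 4.94, 4.37 and 3.25 per 1000 in interior cells, and its part in these differences was not tested.

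**Figure D5:**
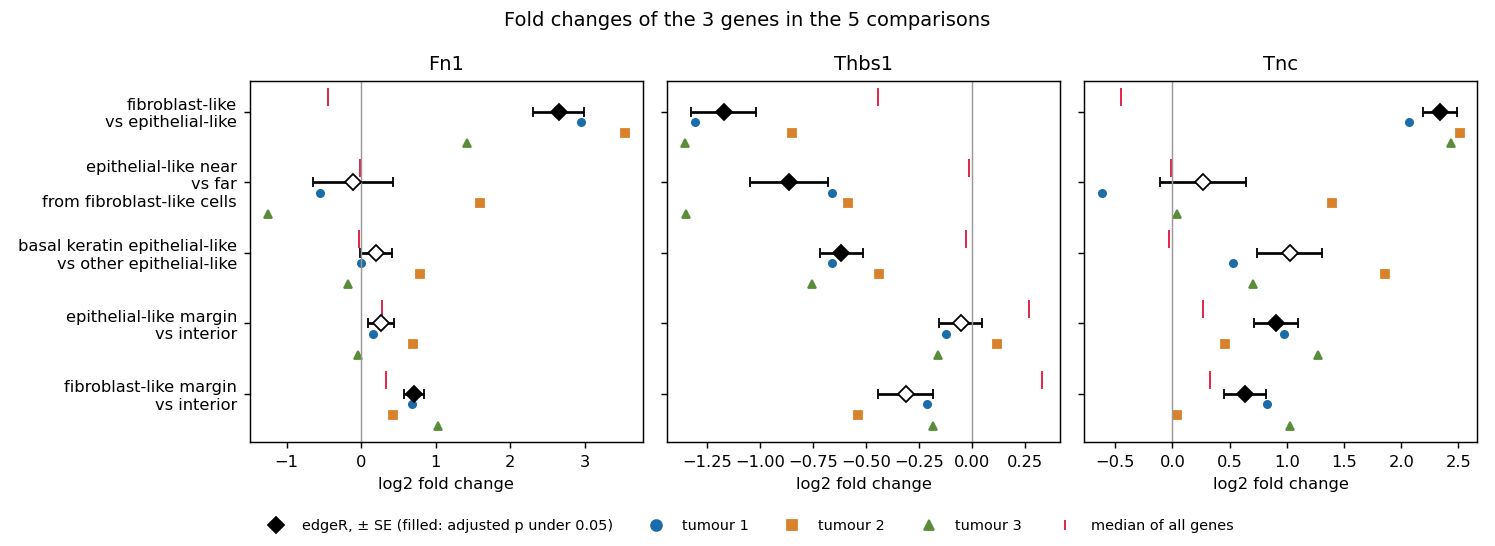
Log2 fold changes of Fn1, Thbs1 and Tnc in the 5 comparisons (edgeR value ± SE as a diamond, filled where the adjusted p is under 0.05), with 1 point per tumour and the median of all genes as a red line. Points of the 3 tumours fall on both sides of 0 for Fn1 and Tnc in near against far epithelial-like cells, and on 1 side for Thbs1.

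Over space, all 3 genes formed patches of epithelial-like cells. Between adjacent tiles of 50 µm (17941, 21900 and 25333 tiles), the level correlated at r = 0.59, 0.39 and 0.78 for Fn1, at 0.66, 0.63 and 0.81 for Thbs1 and at 0.56, 0.42 and 0.58 for Tnc. The median gene had 0.20, 0.17 and 0.19 and the highest Blank code 0.23, 0.19 and 0.54. The 3 genes were above the highest Blank code in each tumour, by least for Tnc in tumour 3, but every Blank code had fewer counts than they did. Adjacent tiles share a section, and tiles of higher count give higher correlations, so these values describe each section and compare no genes. Among tiles of 100 µm, Fn1 ran from 0.586 per 1000 at the 5th percentile to a median of 3.49 and to 49.99 at the 95th in tumour 3. In tumour 1 the same points were 0.742, 2.63 and 8.44 and in tumour 2 they were 0, 0.973 and 4.24. Thbs1 reached 72.9, 47.1 and 147 per 1000 at the 95th percentile, against medians of 31.7, 12.5 and 41.8.

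The genes shared patches to an extent that differed between tumours. Over 4609, 5862 and 6549 tiles of 100 µm, Fn1 and Tnc correlated at r = 0.28, 0.20 and 0.63, Fn1 and Thbs1 at 0.07, -0.04 and 0.53, and Thbs1 and Tnc at 0.32, 0.03 and 0.31. Fn1 thus went with Thbs1 in tumour 3 and not in the other two. Over single epithelial-like cells the correlations were weaker, at 0.14, 0.07 and 0.32 for Fn1 and Tnc.

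The genes most like each of the 3 were named by a fixed measure, the mean over tumours of the correlation within a tumour. Over 24, 23 and 23 clusters, Fn1 was nearest to Pi16 (mean r = 0.77), Col1a1 (0.76) and Csf3r (0.69). Thbs1 was nearest to the tight junction gene Cldn4 (0.86), to Tgif1 (0.84) and to the immediate early gene Fos (0.83). Fn1 (0.59) and Col1a1 (0.49) were among the 3 genes nearest to Tnc. Over tiles of epithelial-like cells, Fn1 was nearest to Krt17 (0.41, but -0.03 in the lowest tumour), Tnc (0.37) and the actin crosslinker gene Actn1 (0.36). Thbs1 was again nearest to Cldn4 (0.50, at least 0.44 in each tumour), followed by Atf3, a stress-induced transcription factor gene (0.46), and Actn1 (0.41). Tnc was nearest to S100a6 (0.38) and Fn1 (0.37).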

How the data were processed

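Per the file headers, the authors deposited raw counts for each cell and gene and, as a signal for each cell, its volume, beside the cell's centre. The segmentation and decoding steps were not given in the sources used here. Scanpy 1.9.3 appears in the submitters' processing notes, with no step named. Distances were taken as µm, which the headers do not state. No cell ID was shared (0 between sections). Cells were kept from 20 panel transcripts upward and at a volume of 50 µm3 to 3 times the section's median.

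For classes, 20000 cells per section were clustered without Fn1, Thbs1 and Tnc (255 genes, leidenalg 0.10.2, resolution 1, seed 1), and other cells took the nearest centroid, which returned 76.7% of clustered cells to their own cluster. Cluster names needed 3 markers 2-fold higher than in other cells (for epithelial-like ones, than in the other named clusters), by rules completed after the clusters were seen. No doublet caller was run, because mixing comes from neighbouring cells.

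Counts were summed per tumour and arm (6 sums) and tested with edgeR 4.0.16 in R 4.3.3 (limma 3.58.1), two-sided, over all 258 genes after filterByExpr, scaled by the panel total, with Benjamini-Hochberg adjustment at 0.05. Both arms come from the same section, so the tumour is a block by design. DESeq2 1.42.0 was an alternative. Each sum came from at least 100 cells.

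Named genes were Fn1, Thbs1 and Tnc, the 3 nearest to each by mean correlation (of log2(level + 0.1) over clusters, of level over 100 µm tiles of at least 20 cells) among genes above every Blank code, and up to 2 per direction of each gene list; 1 gene that this rule named is not reported here. The genes and lists were chosen with earlier results of these data known.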

Additional observations from a re-analysis of the deposited data

How the results depend on the processing

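Fibroblast-like against epithelial-like differences kept their direction and side of the threshold under all 18 alternatives, at 2.18 to 4.01 for Fn1, -2.24 to -0.65 for Thbs1 and 1.53 to 2.86 for Tnc. The position comparisons were less stable, and where a call was lost the cause was not tested. Each has 3 sections, so 1 tumour can end a call. Alternatives by cluster (without the Krt17- and Fosb-led cluster, Col1a1-led cells only, and others) and with Blank codes among the genes were added after seeing the data. Clec3b-led cells alone were not compared by margin, since tumour 3 had 40 in the interior.

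For epithelial-like margin cells, Tnc lost its call under TMM normalization (0.66), by volume (0.75) and in cells without fibroblast list transcripts (0.29), and ran from 0.72 to 1.12 with 1 tumour left out, the lowest without tumour 3. Thbs1 passed with DESeq2 (-0.34). Signs turned for Fn1 with DESeq2 (-0.02) and without fibroblast list transcripts (-0.34), and for Thbs1 in the same cells (0.08). For near against far cells, Thbs1 lost its call under TMM normalization (-0.88), DESeq2 (-0.91), without fibroblast list transcripts (-0.79) and without the Krt17- and Fosb-led cluster (-0.64), and ran from -1.0 (without tumour 2, call lost) to -0.62 with 1 tumour left out. Fn1 turned sign at resolution 2 (0.12), with marker-count classes (0.02), at 15 and 50 µm (0.30) and without the Krt17- and Fosb-led cluster (0.61), and ran from -0.90 to 0.52 with 1 tumour left out. Tnc turned with marker-count classes (-0.03) and without fibroblast list transcripts (-0.37), and ran from -0.28 to 0.72.

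For basal keratin cells, Thbs1 lost its call with DESeq2 (-0.67), by volume (-0.34) and without fibroblast list transcripts (-0.58). Tnc passed with DESeq2 (0.97), by volume (1.30), at resolution 2 (1.09), with marker-count classes (0.97), with 5 or more keratin transcripts (1.21), with Blank codes added (1.02) and with any 1 tumour left out (0.62 to 1.28). Fn1 turned sign without fibroblast list transcripts (-0.13), and ran from -0.09 to 0.39. For fibroblast-like margin cells, Fn1 lost its call by volume (0.31) and in Col1a1-led cells (0.37). Tnc lost it under TMM normalization (0.40), DESeq2 (0.37), by volume (0.24) and at 75 and 300 µm (0.50), and ran from 0.44 to 0.93, lost without tumours 1 and 3. Thbs1 passed under TMM normalization (-0.55) and DESeq2 (-0.58).

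Both arms of a tumour are 1 section, a pairing by design. With no replicate block the calls on Tnc at the epithelial-like margin (0.94), Thbs1 near and far (-1.0) and in basal keratin cells (-0.67), and Fn1 (0.75) and Tnc (0.63) at the fibroblast-like margin were lost, and Fn1 in basal keratin cells turned to -0.01. Without the block the genes called were 0 (73 at unadjusted p under 0.05 in edgeR), 11, 14 and 15 for the epithelial-like margin, near and far, basal keratin and fibroblast-like margin comparisons, against 88, 71, 49 and 126 with it.

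Counts of genes called also moved otherwise. For the epithelial-like margin there were 1 under TMM normalization, 24 by volume, 104 with DESeq2, 0 without fibroblast list transcripts (92 at unadjusted p under 0.05) and 0 to 87 with 1 tumour left out (0 without tumour 3, 96 at unadjusted p under 0.05). For near and far there were 42 under TMM normalization, 138 with DESeq2, 19 without fibroblast list transcripts and 0 to 58 with 1 tumour left out (0 without tumour 2, 86 at unadjusted p under 0.05). For basal keratin cells there were 135 with DESeq2, 91 by volume, 5 without fibroblast list transcripts and 60 to 75 with 1 tumour left out, and for the fibroblast-like margin 30 by volume and 65 to 97.

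Scaling moved the split of higher and lower genes. It was 76 and 136 for fibroblast-like against epithelial-like cells (108 and 84 under TMM normalization, 106 and 112 with DESeq2), 87 and 1 at the epithelial-like margin (47 and 57 with DESeq2), and 42 and 29 for near and far (60 and 78 with DESeq2, 29 and 52 by volume). It was 34 and 15 for basal keratin cells (61 and 74 with DESeq2, 85 and 6 by volume) and 103 and 23 at the fibroblast-like margin (47 and 48 under TMM normalization, 58 and 79 with DESeq2, 17 and 13 by volume).

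The fibroblast-like share of Thbs1 transcripts was 4.57% at resolution 2 and 5.59% with marker-count classes, against 3.21% as reported, and that of Tnc was 34.6% with marker-count classes, against 25.7%. With 1 tumour left out the fibroblast-like share of Fn1 ran from 23.1% to 38.2%. Counting error is small beside the spread between tumours at this depth, and transcripts placed in a wrong neighbouring cell were limited only by the alternatives above.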
